A study of Mus musculus with 24 samples.

Results

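Ferritin and iron handling was followed through 9 genes, chosen by symbol from the 27179 genes of the count tables: Ftl1 and Fth1 (the light and heavy ferritin chains), Ncoa4, Tfrc, Slc11a2, Slc40a1, Ireb2, Aco1 and Hmox1. The set was built around Ftl1, which was already known to be low in all Spib-deleted libraries of this series and lies near Spib, so its values in those libraries are given as a description, without a test. The question was whether the other iron genes differed as well. RNA-seq had been performed on lymph node B cells of C57BL/6 mice in 24 libraries, with 2 per genotype and stage. The stages were naive cells, CD40L + IL-4 cultures and LPS + IL-4 cultures, the last 2 taken at 48 h.

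Control mice were Cd23T/+. The 3 mutant genotypes all carried Spi1fl/fl, in PU.1 cKO together with Cd23T/+, in SpiB KO with Cd23+/+ and Spib-/-, while PU.1 SpiB DKO mice had Cd23T/+ as well as Spib-/-. Cre came from a Cd23 BAC transgene that is active from the transitional B cell stage, whereas Spib was deleted in every cell of the mouse. SpiB KO cells carried floxed Spi1 but no Cre, and control cells carried Cre but no floxed allele. The labels do not say how many animals gave each library, so the p-values measure the spread between these libraries. The naive and LPS + IL-4 libraries shared a count table and the CD40L + IL-4 libraries had their own, so for CD40L + IL-4 cells stage and table cannot be told apart. The cells had been sorted as CD3- B220+ CD138-, a gate meant to leave out T cells and CD138+ plasma cells.

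Library totals were 14231188 to 18194629 counts in naive, 9598674 to 61640683 in CD40L + IL-4 and 22757630 to 73658850 in LPS + IL-4 cells. All 7 B cell markers were detected in every library. Spib was at 178 to 2176 CPM (the count of a gene scaled to the size of its library) in the 12 libraries with intact Spib and at 9.05 to 100.4 CPM in the 12 Spib-deleted ones. Spi1 was lower in every PU.1 cKO library than in the controls of its stage, but in naive PU.1 SpiB DKO cells it was still at 103 and 110.2 CPM, against 155 and 174 in control, and in the LPS + IL-4 libraries labelled PU.1 SpiB DKO it was at 58.9 and 63.9 CPM, against 60.7 and 72.0. Those LPS + IL-4 groups overlapped. The counts cover the whole gene, so they do not check the deleted exon by itself. The paper did so by read coverage. It reported the floxed Spi1 exon as markedly retained in naive PU.1 SpiB DKO cells, and as efficiently deleted after both stimuli. Naive PU.1 SpiB DKO values thus describe a partial loss of PU.1.

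Cells take up iron bound to transferrin through the transferrin receptor (Tfrc), move it across the endosomal membrane with the transporter DMT1 (Slc11a2), store it in ferritin cages of light and heavy chains, release it through NCOA4, which delivers ferritin to lysosomes, and export it through ferroportin (Slc40a1). HMOX1 breaks down haem and frees its iron. Much of this is set after transcription: when iron is scarce, the iron regulatory proteins IRP1 (Aco1) and IRP2 (Ireb2) bind a hairpin, the iron-responsive element, in the 5′ UTR of ferritin and ferroportin mRNA, which blocks translation, and in the 3′ UTR of Tfrc mRNA, which protects it from decay. An mRNA count therefore measures only a part of the control of these genes.

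The element was searched in the GENCODE vM21 transcripts (GRCm38) as the bulged C, any 5 bases and the loop CAGTGN, with all 5 base pairs of the upper stem formed, G-T pairs included. Of the 9 genes, 4 held it, and the hairpins are shown because they are what divides the genes into those controlled at translation and those controlled through mRNA stability. Capitals mark the bulged C and the loop. The ferritin and ferroportin elements lay in exon 1, in the 5′ UTR, at chr7:45459779-45459807 (minus strand) for Ftl1, chr19:9982732-9982760 (plus strand) for Fth1 and chr1:45925465-45925493 (minus strand) for Slc40a1.
Ftl1: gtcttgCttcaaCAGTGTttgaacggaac
Fth1: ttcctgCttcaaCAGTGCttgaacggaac
Slc40a1: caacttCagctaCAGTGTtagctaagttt

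The 4 Tfrc elements that met this pattern lay in the 3′ UTR, all within exon 19 of 19, between chr16:32631219-32631247 and chr16:32631710-32631738 (plus strand). Elements that depart from the pattern would have been missed. The 4 are lettered here from the 5′ end.
Tfrc a: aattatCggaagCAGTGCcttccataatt
Tfrc b: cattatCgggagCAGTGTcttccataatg
Tfrc c: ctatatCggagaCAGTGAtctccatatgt
Tfrc d: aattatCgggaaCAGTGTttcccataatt

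Among 21901 genes, 31 (0.142%) held such a hairpin in a 5′ UTR and 129 (0.589%) in a 3′ UTR. The search found no match in the other 5 members, which says only that this pattern is not in their transcripts as annotated.

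Ftl1 (chr7:45457944-45459886, minus strand, GRCm38), which encodes the ferritin light chain, was low in all 12 libraries without Spib. The naive libraries held 172 and 164 CPM (control), 189 and 186 CPM (PU.1 cKO), 4.82 and 4.91 CPM (SpiB KO), and 14.3 and 3.64 CPM (PU.1 SpiB DKO). The CD40L + IL-4 libraries held 298 and 381 CPM (control), 296 and 507 CPM (PU.1 cKO), 13.1 and 7.28 CPM (SpiB KO), and 30.0 and 23.0 CPM (PU.1 SpiB DKO). After LPS + IL-4 the values were 201.4 and 201.6, 205 and 239, 18.4 and 17.1, and 24.9 and 27.9 CPM in the same order of genotypes. At no stage did Spib-intact and Spib-deleted libraries overlap. The log2 fold changes against control for naive, CD40L + IL-4 and LPS + IL-4 cells were -5.11 ± 0.46 (SE), -5.06 ± 0.35 and -3.50 ± 0.11 where SpiB alone was lost. The PU.1 SpiB DKO values were -4.25, -3.68 and -2.93.

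**Figure D1:**
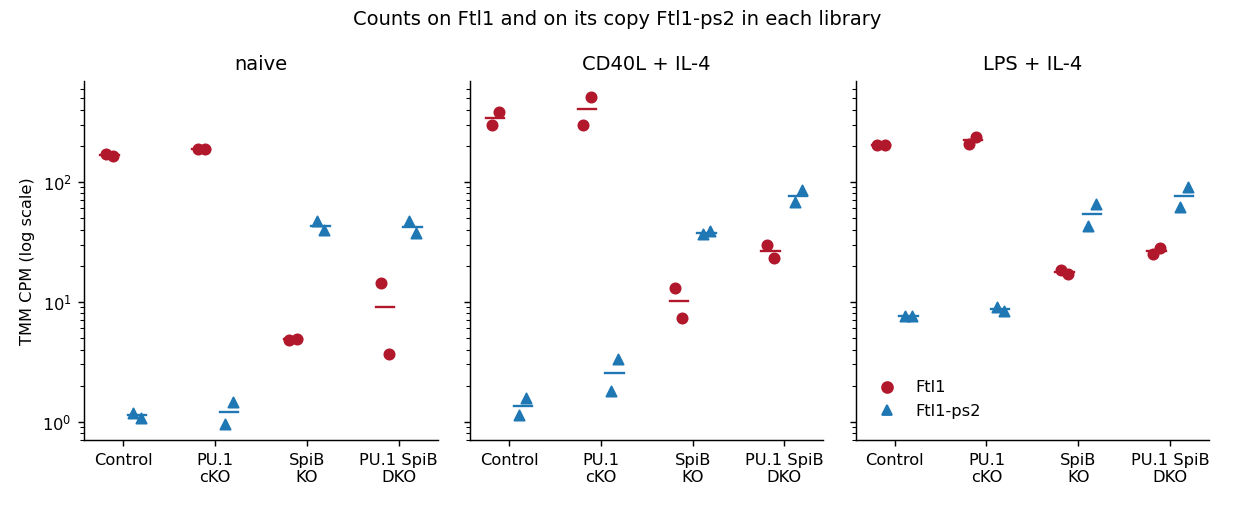
Ftl1 and its near-identical copy Ftl1-ps2 in each of the 24 libraries (CPM, log axis), by genotype and stage. Ftl1 was at 164 to 507 CPM where Spib was intact and at 3.64 to 30.0 CPM where it was deleted, while Ftl1-ps2 was at 0.955 to 9.06 CPM in the former and at 36.8 to 91.4 CPM in the latter.

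Ftl1 has close copies in the mouse genome, and only uniquely mapped reads had been counted. In the GENCODE transcripts 9 other genes, 6 of them pseudogenes, matched the Ftl1 transcript at 90% identity or more over at least 200 bases, and 90.6% of its windows of 50 bases (78.6% of those of 100 bases) occurred exactly in the transcript of another gene. A read from such a window has no unique position unless it carries a difference elsewhere. One copy, Ftl1-ps2 (listed in the tables under an older symbol; chr10:130591966-130592901; 97.8% identical to Ftl1 over 549 aligned bases), was looked at after its values were seen. It moved opposite to Ftl1. In the naive libraries Ftl1-ps2 had 1.19 and 1.07 CPM (control), 0.955 and 1.45 CPM (PU.1 cKO), 46.9 and 39.6 CPM (SpiB KO), and 46.9 and 37.6 CPM (PU.1 SpiB DKO). The same division held after CD40L + IL-4, at 1.14 to 3.34 CPM in the 4 Spib-intact and 36.8 to 84.8 CPM in the 4 Spib-deleted libraries, and after LPS + IL-4, at 7.58 to 9.06 against 42.8 to 91.4 CPM.

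In the 12 Spib-intact libraries Ftl1-ps2 held 0.382% to 4.22% of the counts of both genes (3.37% to 4.22% after LPS + IL-4). In the 12 Spib-deleted ones it held 69.3% to 91.2%. When the counts of both genes were summed in each library, a choice made after seeing the data, the groups still did not overlap, at 165 to 510.0 CPM against 41.3 to 119 CPM, but the difference was much smaller. In SpiB KO cells Ftl1 alone was 34.5-fold, 33.3-fold and 11.4-fold lower than in control, and the sum was 3.51-fold, 7.10-fold and 2.91-fold lower, in naive, CD40L + IL-4 and LPS + IL-4 cells. In PU.1 SpiB DKO cells Ftl1 alone was 18.7-fold, 12.8-fold and 7.63-fold lower and the sum 3.30-fold, 3.32-fold and 2.03-fold lower. Other copies had no row in the tables, and whether reads that belong to Ftl1 were counted at Ftl1-ps2 or discarded was not tested.

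Loss of PU.1 alone did not detectably move Ftl1: its log2 fold changes against control were 0.16 ± 0.36 (adjusted p = 0.827), 0.25 ± 0.28 (adjusted p = 0.671) and 0.14 ± 0.10 (adjusted p = 0.454) at the 3 stages. Between the genotypes that lack Spib, Ftl1 was higher in PU.1 SpiB DKO than in SpiB KO after CD40L + IL-4 (log2 fold change 1.38 ± 0.32, adjusted p = 0.0209) and after LPS + IL-4 (0.57 ± 0.10, adjusted p = 0.00496), while the naive difference of 0.86 ± 0.47 did not pass (adjusted p = 0.512) and turned to -0.42 without PU.1 SpiB DKO replicate 1, or to 1.55, past the test, without replicate 2 (adjusted p = 0.508 and 0.00516). Ftl1-ps2 was higher as well in this comparison, by 1.01 and 0.51 on the log2 scale in the activated cells, with a naive difference of -0.03.

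Fth1 did not accompany Ftl1. The heavy chain, which carries the ferroxidase activity of ferritin and shares only 6.59% of its windows of 50 bases with another gene, had the highest counts of the members. The naive libraries held 2194 and 2024 CPM (control), 1537 and 1635 CPM (PU.1 cKO), 2609 and 2076 CPM (SpiB KO), and 1850.5 and 1562 CPM (PU.1 SpiB DKO). Both naive PU.1 cKO libraries were below both controls, whereas the SpiB KO libraries were level with or above them. The PU.1 cKO log2 fold change was -0.41 ± 0.14 (adjusted p = 0.122, which passes the study's threshold of 0.15). The SpiB KO value was 0.15 (adjusted p = 0.620) and the PU.1 SpiB DKO value -0.31 (adjusted p = 0.163, and 0.0408 to 0.143 under 5 of the alternatives). The PU.1 cKO call was lost when any 1 of its 4 libraries was left out (-0.47 to -0.35, adjusted p = 0.188 to 0.449).

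After CD40L + IL-4, Fth1 had 923 and 1268 CPM (control), 624 and 877 CPM (PU.1 cKO), 987 and 914 CPM (SpiB KO), and 782 and 945 CPM (PU.1 SpiB DKO). The PU.1 cKO libraries again lay below the controls, with a log2 fold change of -0.54 ± 0.21 at the threshold itself (adjusted p = 0.1495), a call that was lost in limma and without control replicate 2 or either PU.1 cKO library, at -0.30, -0.29 and -0.80 (adjusted p = 0.512, 0.577 and 0.158). The SpiB KO value of -0.20 (adjusted p = 1) did not pass, nor did that of PU.1 SpiB DKO (-0.34, adjusted p = 0.309). After LPS + IL-4 all 8 libraries lay between 759 and 1096 CPM, and no genotype passed against control (adjusted p = 0.431, 0.968 and 0.881).

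Counts of the chains were set side by side per gene length on the deposited log2 RPKM scale. Only uniquely mapped reads were counted, and 90.6% of the 50-base windows of Ftl1 are shared, against 6.59% for Fth1. The excess of Fth1 may therefore be overstated in every library and is not a ratio of the chains. Fth1 exceeded Ftl1 by 2.98 to 3.74 log2 units in the 4 naive Spib-intact libraries and by 6.95 to 9.12 in the 4 Spib-deleted ones. The excess was 1.06 to 1.92 against 5.08 to 7.23 after CD40L + IL-4 and 1.92 to 2.48 against 5.21 to 6.08 after LPS + IL-4. The Ftl1 values used here leave out Ftl1-ps2. Ncoa4, the receptor for ferritin turnover, was at 6.21 to 13.7 CPM across all libraries and did not pass against control in any genotype, but 52.5% of its windows of 50 bases are shared with a copy, so its counts are uncertain.

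**Figure D2:**
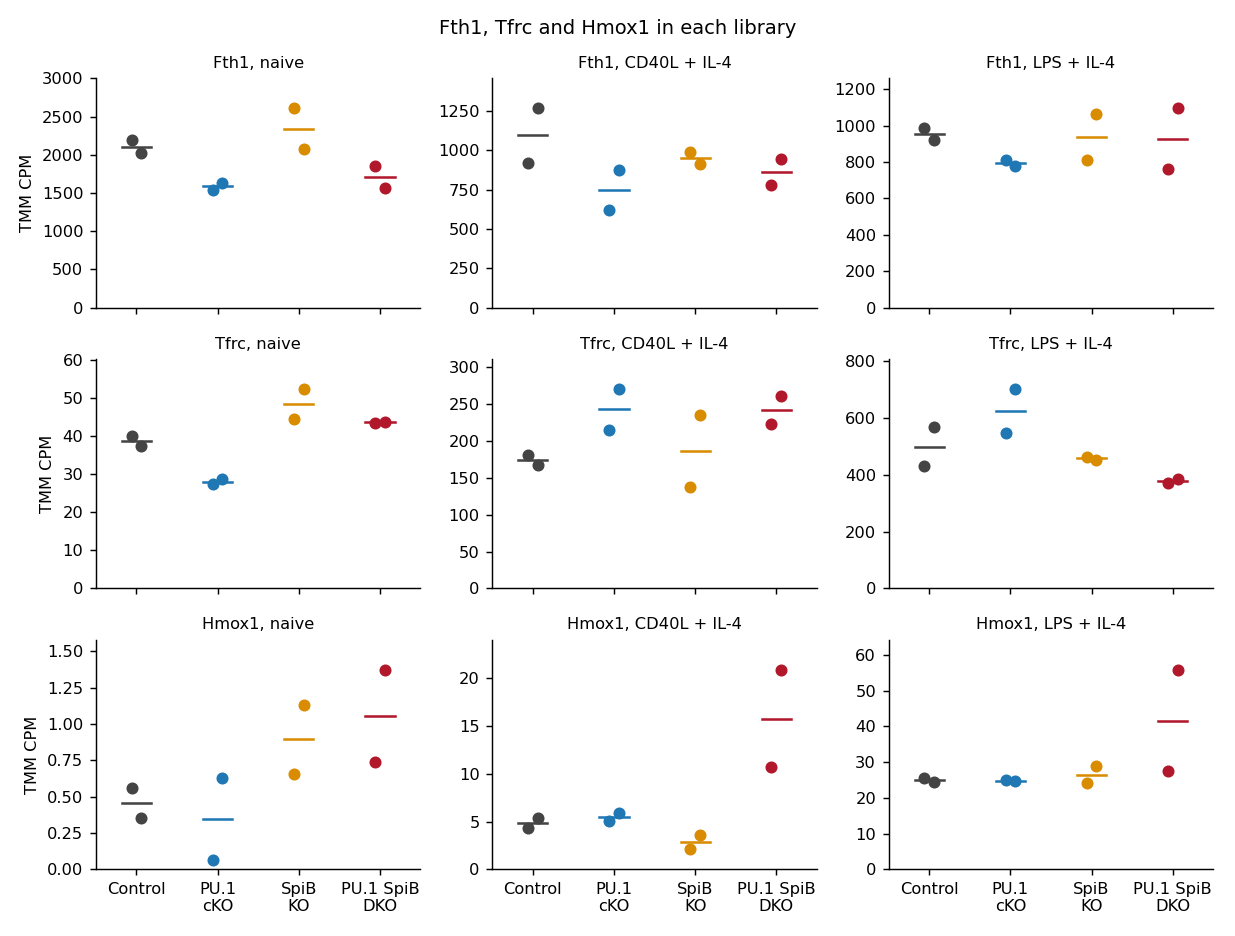
Fth1, Tfrc and Hmox1 in each library (CPM, linear axis from 0), by genotype and stage. The groups of Fth1 overlap after LPS + IL-4, Tfrc is lowest in PU.1 cKO among naive cells, and replicate 2 of PU.1 SpiB DKO holds the highest Hmox1 value in both cultures.

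Tfrc, the transferrin receptor, was lower than in control in naive PU.1 cKO cells and in LPS + IL-4 PU.1 SpiB DKO cells. The naive libraries held 40.0 and 37.4 CPM (control), 27.4 and 28.7 CPM (PU.1 cKO), 44.5 and 52.3 CPM (SpiB KO), and 43.5 and 43.7 CPM (PU.1 SpiB DKO). The PU.1 cKO libraries were the lowest of the 8. Tfrc fell in PU.1 cKO against control by 0.46 on the log2 scale (SE 0.13, adjusted p = 0.0669) and was higher in PU.1 SpiB DKO than in PU.1 cKO by 0.64 ± 0.13 (adjusted p = 0.0120), while SpiB KO (0.32, adjusted p = 0.203) and PU.1 SpiB DKO (0.17, adjusted p = 0.378) did not pass against control. Without either PU.1 cKO library the first value was -0.43 and -0.52 and did not pass (adjusted p = 0.327 and 0.210).

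After CD40L + IL-4, Tfrc had 180.4 and 167 CPM (control), 215 and 269.8 CPM (PU.1 cKO), 137 and 234 CPM (SpiB KO), and 222 and 261 CPM (PU.1 SpiB DKO). Both PU.1-deleted groups lay above control, but the replicates were wide apart and neither passed, at 0.48 in both (adjusted p = 0.246 and 0.203). Both passed without the filter on low counts (adjusted p = 0.0506 and 0.0546) and in a fit of only the groups compared (adjusted p = 0.110 and 0.113). The LPS + IL-4 libraries held 429.7 and 569 CPM (control), 547 and 702 CPM (PU.1 cKO), 462 and 453 CPM (SpiB KO), and 370.2 and 384 CPM (PU.1 SpiB DKO). Here PU.1 SpiB DKO was the lowest group, and Tfrc fell against control by 0.41 on the log2 scale (SE 0.14, adjusted p = 0.0562) and was lower than in PU.1 cKO by 0.73 (log2 fold change -0.73 ± 0.14, adjusted p = 0.00992). The PU.1 cKO value of 0.32 did not pass (adjusted p = 0.221). It passed with the replicate number as a block (0.32, adjusted p = 0.0454), but also in unpaired fits by DESeq2 (adjusted p = 0.145), without the filter on low counts (adjusted p = 0.0166), and without control replicate 2 (0.54, adjusted p = 0.0475) or PU.1 cKO replicate 1 (0.49, adjusted p = 0.105). The PU.1 by SpiB interaction of -0.60 (adjusted p = 0.319) was -0.61 with the block (adjusted p = 0.0472). The fall in PU.1 SpiB DKO did not pass without control replicate 2 (-0.19, adjusted p = 0.383) or PU.1 SpiB DKO replicate 1 (-0.38, adjusted p = 0.197).

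Slc11a2, the endosomal iron transporter, was at 16.8 to 28.5 CPM in all libraries. It passed in 1 comparison against control: after CD40L + IL-4 it was at 16.8 and 20.3 CPM in control and 24.3 and 28.2 CPM in PU.1 SpiB DKO (log2 fold change 0.50 ± 0.19, adjusted p = 0.101), a change below the 1.5-fold that the study required of a differentially expressed (DE) gene. It did not pass without control replicate 1 (0.37, adjusted p = 0.394) or PU.1 SpiB DKO replicate 2 (0.40, adjusted p = 0.392). Slc40a1, the only known iron exporter, was effectively undetected. It had a single count in naive control replicate 2 (0.0711 CPM), was at 0.0747 CPM in 1 LPS + IL-4 library of PU.1 SpiB DKO, and had no count in the other 22 libraries, so it could not be tested at any stage.

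The RNAs of the iron regulatory proteins moved little. Ireb2 was at 111 and 109 CPM in naive control and 93.7 and 92.5 CPM in naive PU.1 SpiB DKO cells, without overlap, a log2 fold change of -0.24 ± 0.10 (adjusted p = 0.113) that did not pass in DESeq2 (adjusted p = 0.190), limma (adjusted p = 0.312), a fit without the filter on low counts (adjusted p = 0.219) or one of only the groups compared (adjusted p = 0.265), nor without any 1 of those 4 libraries (adjusted p = 0.166 to 0.299). Aco1, whose protein is a cytosolic aconitase when iron is plentiful, was at 69.7 and 81.3 CPM in LPS + IL-4 control and 92.7 and 95.3 CPM in PU.1 SpiB DKO, a log2 fold change of 0.31 ± 0.10 (adjusted p = 0.0322) that was 0.20 without control replicate 1 (adjusted p = 0.178). Neither gene passed in any other comparison with control.

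Among the 7 testable members other than Ftl1, only Hmox1, the inducible haem oxygenase, was DE against control, in activated PU.1 SpiB DKO cells. The CD40L + IL-4 libraries held 4.30 and 5.35 CPM (control), 5.11 and 5.92 CPM (PU.1 cKO), 2.17 and 3.64 CPM (SpiB KO), and 10.7 and 20.9 CPM (PU.1 SpiB DKO). Both PU.1 SpiB DKO libraries exceeded all others, and the log2 fold change was 1.72 ± 0.36 against control (adjusted p = 0.00959), 1.503 ± 0.34 against PU.1 cKO (adjusted p = 0.0550) and 2.43 ± 0.37 against SpiB KO (adjusted p = 0.00245). The PU.1 by SpiB interaction was 2.22 ± 0.52 (adjusted p = 0.134), and did not pass when 1 of 6 of the 8 libraries was left out. The difference from PU.1 cKO did not pass without PU.1 SpiB DKO replicate 2 (0.93, adjusted p = 0.437) or either PU.1 cKO library (1.3996 and 1.62, adjusted p = 0.249 and 0.221), while those from control and SpiB KO passed without any 1 library.

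After LPS + IL-4, Hmox1 had 25.7 and 24.4 CPM (control), 24.9 and 24.6 CPM (PU.1 cKO), 24.1 and 28.9 CPM (SpiB KO), and 27.5 and 55.7 CPM (PU.1 SpiB DKO). This last group exceeded control by 0.73 ± 0.26 on the log2 scale (adjusted p = 0.0543), which rested on 1 library: without PU.1 SpiB DKO replicate 2 it was 0.12 (adjusted p = 0.573), and without control replicate 2 it was 0.69 (adjusted p = 0.198). In naive cells Hmox1 was at 0.0637 to 1.37 CPM and no genotype passed against control. The LPS + IL-4 values also passed against PU.1 cKO (0.75, adjusted p = 0.0688) and SpiB KO (0.65, adjusted p = 0.116, with overlap), and neither did without PU.1 SpiB DKO replicate 2 (0.14 and 0.04, adjusted p = 0.575 and 0.904). Macrophages were followed by 16 markers. Their summed level in CD40L + IL-4 cells was 9.63 to 12.7 CPM in PU.1 SpiB DKO and 10.1 to 10.7 CPM in PU.1 cKO. In SpiB KO it was 41.4 to 61.4 CPM and in control 44.8 to 61.3 CPM. There C1qa, C1qb, C1qc, Cd14, Cd163, Csf1r and Marco had no count in any of the 8 libraries. After LPS + IL-4 the sum was 6.81 to 8.12, 5.08 to 6.98, 21.5 to 24.4 and 12.1 to 18.6 CPM in the same order. It was thus low in PU.1 cKO too, and its part in the Hmox1 result was not tested. The sum of 6 plasma cell markers was 3765 to 4008 CPM in PU.1 SpiB DKO, 2747 to 3103 CPM in PU.1 cKO and 1624 to 1959 CPM in control after CD40L + IL-4, and 2537 to 2571, 1817 to 2055 and 1129 to 1235 CPM after LPS + IL-4. It was thus also higher in PU.1 cKO, where Hmox1 was not past the test, and its part in the result was not tested. The gate on CD138 is meant to leave out plasma cells.

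**Figure D3:**
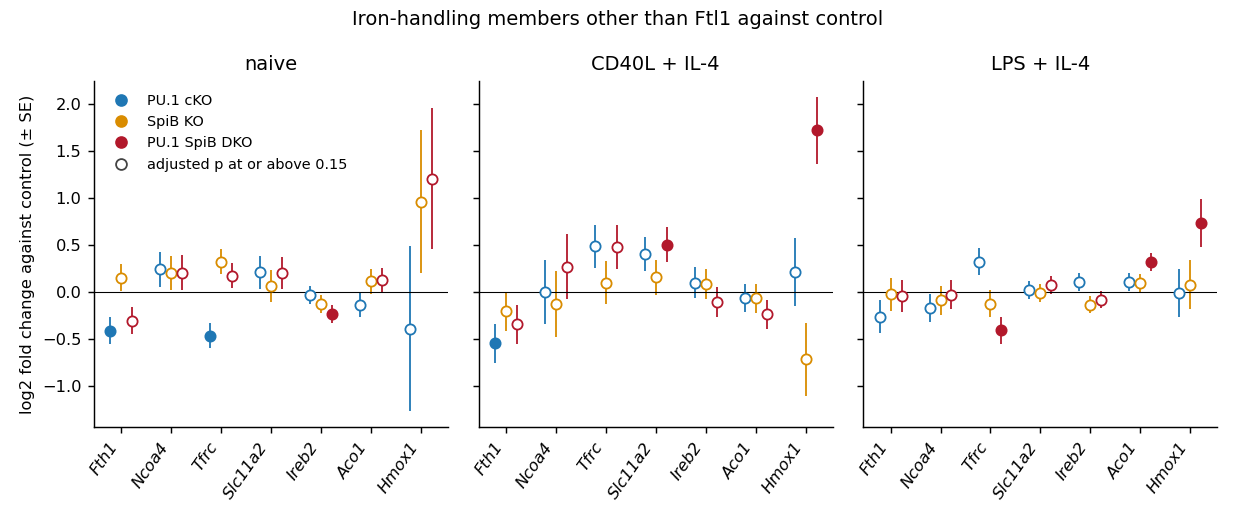
Log2 fold change against control (± SE) of the 7 testable members other than Ftl1 in each mutant genotype, by stage, with filled points at an adjusted p under 0.15. The largest value past the test is Hmox1 in PU.1 SpiB DKO, at 1.72 after CD40L + IL-4, and all SpiB KO points are open.

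Counted together, the 7 testable members other than Ftl1 gave 9 calls at an adjusted p under 0.15 in 63 tests against control. In SpiB KO, the genotype in which Ftl1 was lowest, 0 of 7 passed at each stage by edgeR, beside 12.6%, 0.134% and 5.13% of all genes tested in naive, CD40L + IL-4 and LPS + IL-4 cells. There DESeq2 and limma also called 0 of 7, and an unadjusted p under 0.05 was reached by 1 member, Tfrc in naive cells. The SpiB KO log2 fold changes lay between -0.20 and 0.15 for Fth1, -0.13 and 0.32 for Tfrc, -0.13 and 0.08 for Ireb2, -0.07 and 0.11 for Aco1, -0.13 and 0.20 for Ncoa4, -0.01 and 0.16 for Slc11a2 and, most widely, -0.72 and 0.96 for Hmox1. The median absolute log2 fold change of the members was 0.15 in naive SpiB KO cells, against 0.22 over all genes.

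In PU.1 cKO, 2, 1 and 0 of the 7 passed in naive, CD40L + IL-4 and LPS + IL-4 cells, beside 17.2%, 16.6% and 19.0% of all genes. The 0 after LPS + IL-4 is the edgeR count: no member reached an unadjusted p under 0.05, and DESeq2 called 1 and limma 0. In PU.1 SpiB DKO, 1, 2 and 3 of the 7 passed, beside 34.8%, 25.2% and 48.0%. Only Hmox1, after each activation, was DE in these 63 tests, beside 13.7% and 13.6% of all genes in those PU.1 SpiB DKO comparisons. Between mutants, PU.1 SpiB DKO differed from PU.1 cKO in 1, 1 and 2 of 7 members at the 3 stages (beside 18.1%, 4.23% and 36.3% of all genes) and from SpiB KO in 0, 1 and 1 (beside 4.20%, 20.4% and 30.0%), where naive Fth1 had an unadjusted p under 0.05 and passed in DESeq2 and limma. The interaction passed for 1 of 7 after CD40L + IL-4 (beside 1.17%). Between stages, 1 of 7 PU.1 cKO effects differed (CD40L + IL-4 against naive, beside 9.05% of all genes), and of the PU.1 SpiB DKO effects 1 of 7 for LPS + IL-4 against naive (29.6%) and 3 of 7 for LPS + IL-4 against CD40L + IL-4 (28.6%). The comparisons within a stage share libraries. All these counts come from fits without the replicate block, with which further members passed between mutants after LPS + IL-4. Read against those shares, the members' counts against control were near or below the background, with 2 of 7 beside 17.2% in naive PU.1 cKO cells the furthest above it.

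In control cells Tfrc, Hmox1 and Aco1 were higher and Fth1 was lower in both cultures than in naive cells. The labels do not say whether the stages were prepared together, so activation and preparation of the libraries cannot be told apart. Tfrc rose from 43.5 and 39.1 CPM in naive cells to 174 and 163 CPM after CD40L + IL-4 and 412 and 563 CPM after LPS + IL-4, with all 3 groups apart. The log2 fold change was 2.03 (adjusted p = 1.15e-07) after CD40L + IL-4, 3.56 (adjusted p = 4.08e-11) after LPS + IL-4, and 1.53 (adjusted p = 5.00e-06) between the activated stages. Hmox1 rose from 0.609 and 0.372 CPM to 4.15 and 5.23 CPM and to 24.6 and 24.1 CPM, by 3.24 (adjusted p = 0.000135) and 5.62 (adjusted p = 1.10e-08) on the log2 scale. Fth1 fell from 2386 and 2116 CPM to 891 and 1240.4 CPM and to 948 and 909 CPM, a log2 fold change of -1.08 (adjusted p = 0.000188) and -1.28 (adjusted p = 1.76e-05).

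Aco1 rose after both stimuli, from 46.0 and 42.6 CPM to 85.4 and 69.7 CPM (0.81, adjusted p = 2.02e-05) and 66.8 and 80.4 CPM (0.73, adjusted p = 2.87e-05). Ftl1, whose control libraries the choice of members did not compare, rose after CD40L + IL-4 from 187 and 172 to 287 and 372 CPM (0.88 ± 0.33, adjusted p = 0.0311, and 0.68, adjusted p = 0.166, without control replicate 2 of that culture) and was at 193 and 199 CPM after LPS + IL-4 (0.13, adjusted p = 0.738). Ireb2 rose by 0.30 after LPS + IL-4 (adjusted p = 0.0269) but fell by 0.24 after CD40L + IL-4 (adjusted p = 0.0910), as did Slc11a2, by 0.33 (adjusted p = 0.0897). None of these 3 passed in a fit of the control libraries only (adjusted p = 0.157, 0.290 and 0.207), nor the Ireb2 rise without LPS + IL-4 control replicate 2 (0.21, adjusted p = 0.215). The falls did not pass without naive control replicate 1 (-0.20 and -0.18, adjusted p = 0.269 and 0.450) or, after CD40L + IL-4, without control replicate 2 for Ireb2 (-0.14, adjusted p = 0.423) and replicate 1 for Slc11a2 (-0.18, adjusted p = 0.469). Across the 3 comparisons between control stages 12 of 24 member tests were DE, beside 35.4%, 47.5% and 30.9% of all genes for CD40L + IL-4 against naive, LPS + IL-4 against naive and LPS + IL-4 against CD40L + IL-4.

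**Figure D4:**
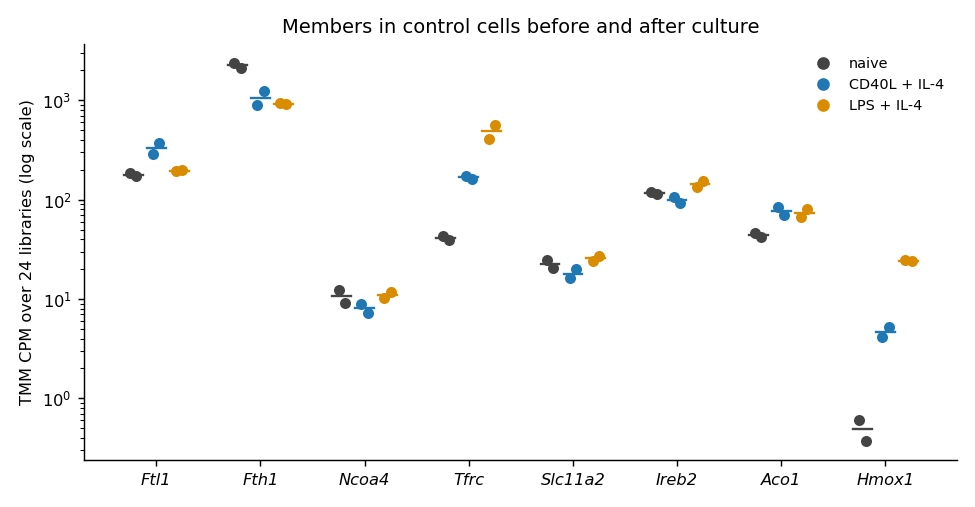
The 8 testable members in the control libraries of the 3 stages (CPM, log axis), each point 1 library. Tfrc and Hmox1 climb from naive to CD40L + IL-4 to LPS + IL-4 cells, and Fth1 is highest in naive cells at 2116 to 2386 CPM.

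A further 48 genes of iron uptake, haem synthesis, haem transport and breakdown, iron-sulphur clusters and the NRF2 and BACH1 axis were listed, and 42 were tested at each stage. In SpiB KO 3 of 42 were DE in naive cells, all higher (beside 6.35% of all genes), and 0 of 42 in either culture (beside 0.110% and 2.29%). By edgeR 0 passed in the cultures, where an unadjusted p under 0.05 was reached by 0 and 6, limma called 0 and 2, and DESeq2 called 0 in both. In PU.1 cKO the counts were 2, 2 and 1 of 42 (beside 8.40%, 9.36% and 6.67%), and in PU.1 SpiB DKO 8, 9 and 5 of 42 (beside 14.1%, 13.7% and 13.6%). Of the PU.1 SpiB DKO genes 7, 8 and 4 were higher, beside 7.39%, 5.84% and 8.76% of all genes DE higher. Some genes, such as Steap3 and Nqo1, were counted at more than 1 stage. The genes named next had the largest changes without overlap between the groups.

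Steap3, the ferrireductase that reduces iron in the transferrin endosome, rose in naive PU.1 cKO cells to 13.5 and 12.8 CPM from 3.22 and 2.28 CPM (log2 fold change 2.25 ± 0.23, adjusted p = 0.000631). It also rose in naive SpiB KO (0.94, adjusted p = 0.0533), naive PU.1 SpiB DKO (2.05, adjusted p = 0.000364) and CD40L + IL-4 PU.1 SpiB DKO cells (1.05, adjusted p = 0.0530). The call in SpiB KO was lost in limma and without control replicate 2 or either SpiB KO library (adjusted p = 0.182 to 0.260), and that in CD40L + IL-4 cells without control replicate 1 or PU.1 SpiB DKO replicate 2 (adjusted p = 0.197 and 0.165). Trf, which encodes transferrin, was at 5.95 and 6.36 CPM in naive SpiB KO against a mean of 0.809 CPM in control (2.91 ± 0.45, adjusted p = 0.00510) and rose by 3.19 in naive PU.1 SpiB DKO (adjusted p = 0.00123). Slc39a14, a zinc transporter that also carries iron, rose in both Spib-deleted genotypes of naive cells, by 0.92 (adjusted p = 0.00949) and 1.20 (adjusted p = 0.000884), and Abcg2, a transporter of haem among other substrates, by 1.23 in PU.1 SpiB DKO (adjusted p = 0.0188).

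Summed levels of some markers of other cells were also higher in the Spib-deleted naive cells. The summed level of 8 T cell markers was 381 to 460.2 CPM in naive SpiB KO and 564 to 573 CPM in PU.1 SpiB DKO against 72.2 to 116 CPM in control, that of the macrophage markers 56.0 to 67.0 and 77.2 to 78.5 against 16.6 to 27.2 CPM, and that of 8 plasmacytoid dendritic cell markers 3247 to 4019 and 3383 to 3858 against 1866 to 2073 CPM. Of the tested markers, 3 of 7 T cell, 1 of 8 macrophage and 7 of 8 plasmacytoid dendritic cell genes were DE higher in SpiB KO, beside 3.46% of all genes. In PU.1 SpiB DKO the counts were 4 of 7, 3 of 8 and 7 of 8, beside 7.39%. Of 3 erythroid markers 0 were DE in either genotype. The gate on CD3 and B220 is meant to leave out T cells and cells without B220, but not other cells that carry B220. The paper proposes that SpiB represses genes of other lineages within B cells. The part of these markers in the rise of Trf and Slc39a14 was not tested. In bulk RNA fewer cells of a type and less RNA per cell cannot be told apart.

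In activated cells Nqo1, an NRF2 target, was at 32.5 and 35.7 CPM in CD40L + IL-4 PU.1 SpiB DKO cells against a control mean of 12.3 CPM (1.48 ± 0.31, adjusted p = 0.0109), and rose by 1.06 after LPS + IL-4 (adjusted p = 0.0125). Of the 8 genes listed for the NRF2 and BACH1 axis, 4 were DE in CD40L + IL-4 PU.1 SpiB DKO cells, all higher, beside 5.84% of all genes DE higher: Nqo1, Gclm (0.89), Gclc (0.80) and Txnrd1 (0.73). This axis is the only group of the further genes that is counted by itself here. Gclc and Gclm encode the subunits of the enzyme that starts glutathione synthesis, and both are named after their values were seen. After LPS + IL-4, 6 of the 8 passed, all higher, beside 25.6% of all genes, and 2 were DE, Nqo1 and Bach1 (0.96, adjusted p = 0.00377), beside 8.76% DE higher. BACH1 represses Hmox1 and Nqo1 when haem is scarce. Here Bach1 and Nqo1 were higher in the same comparison. Hmox1 was higher too, but only by 0.12 on the log2 scale without PU.1 SpiB DKO replicate 2. A link between these genes was not tested.

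Alad, an enzyme of haem synthesis, rose in PU.1 SpiB DKO cells by 1.12 after CD40L + IL-4 (adjusted p = 0.00508) and by 0.66 in naive cells (adjusted p = 0.00745). Slc48a1, a haem transporter, rose in the same genotype by 0.85 after LPS + IL-4 (adjusted p = 0.000345) and by 0.98 after CD40L + IL-4 (adjusted p = 0.00260). Slc39a8, another zinc transporter that carries iron, rose in PU.1 SpiB DKO cells after LPS + IL-4 from a control mean of 31.5 CPM to 74.3 and 67.6 CPM (1.17 ± 0.11, adjusted p = 5.73e-05). After CD40L + IL-4 it rose by 0.75 (adjusted p = 0.0146). Blvrb, a biliverdin reductase that acts downstream of haem oxygenase, fell in CD40L + IL-4 cells of the PU.1 cKO and the PU.1 SpiB DKO genotype, with log2 fold changes of -1.004 (adjusted p = 0.00635) and -0.99 (adjusted p = 0.00563), and in LPS + IL-4 PU.1 cKO cells by 0.66 (adjusted p = 0.0328, with a value of -0.46, adjusted p = 0.199, without PU.1 cKO replicate 2). Cpox, of haem synthesis, rose by 0.64 in CD40L + IL-4 PU.1 cKO cells (adjusted p = 0.0693, lost without control replicate 2 or either PU.1 cKO library at adjusted p = 0.175 to 0.302), and Txnrd1 by 0.73 in naive PU.1 cKO cells (adjusted p = 0.00479).

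Ftl1 lies 926 kb from Spib on chromosome 7. Other genes of that stretch, Spib and Ftl1 left out and taken from 200 kb before Spib to 200 kb after Ftl1 (44325995 to 45659886, RefSeq, GRCm38), also differed in SpiB KO: 13 of 54 tested genes (24.1%) were DE in naive, 3 of 62 (4.84%) in CD40L + IL-4 and 13 of 57 (22.8%) in LPS + IL-4 cells, beside 6.35%, 0.110% and 2.29% of all genes. In PU.1 cKO, where Spib is intact, 9.26%, 11.3% and 8.77% of them were DE, beside 8.40%, 9.36% and 6.67%. Genes of both directions were among them. Dhdh, a dihydrodiol dehydrogenase gene 941 kb from Spib and just beyond Ftl1, rose by 2.75, 2.45 and 3.13 on the log2 scale in SpiB KO at the 3 stages (adjusted p = 0.000733, 0.00199 and 0.000105). Rcn3, a reticulocalbin gene 551 kb from Spib, had log2 fold changes of -2.72, -2.60 and -2.22 (adjusted p = 0.00250, 0.0634 and 0.00280).

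Mybpc2 starts, by coordinate, 30.4 kb before the last base of Spib, a distance that includes Spib itself. It rose by 3.41 in naive and 2.38 in LPS + IL-4 cells (adjusted p = 7.49e-05 and 0.00273), and its value of 2.05 after CD40L + IL-4 did not pass (adjusted p = 0.190). Slc6a16 and Cpt1c also had large fitted changes but did not meet the study's minimum of a log2 RPKM above 0. Closeness to the deleted Spib allele and the loss of SpiB itself cannot be told apart in this design.

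**Figure D5:**
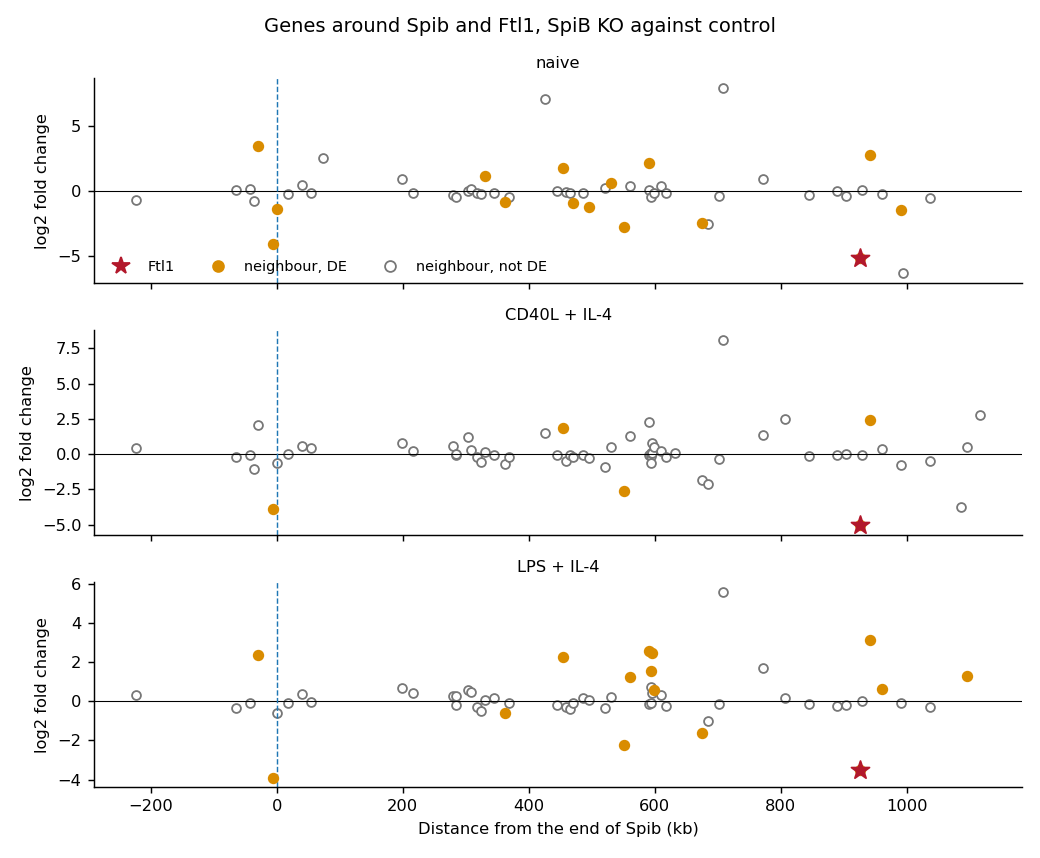
Log2 fold change in SpiB KO against control of the tested genes from 200 kb before Spib to 200 kb after Ftl1, by distance from the end of Spib (kb), for each stage, with the dashed line at that end and Spib itself just left of it. Genes above and below 0 are spread along the stretch, with Dhdh at 2.45 to 3.13 just past Ftl1 at -5.11 to -3.50.

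Over all 24 libraries, with each gene's log2 level centred on its stage mean, the 3 genes of 11580 most like Ftl1 were Htatip2 (Pearson r = 0.97), Spib (0.94) and Rcn3 (0.94), all on chromosome 7. The libraries share genotypes, so these values describe the pattern of Spib deletion. Ftl1 had r = -0.16 with Fth1, -0.12 with Tfrc, 0.47 with Ireb2 and -0.31 with Hmox1. The genes most like Fth1 were Cyba (0.88), Trpt1 (0.84) and Rab5c (0.84), and those most like Tfrc were Ccz1 (0.89), Xylb (0.84) and Spata5 (0.82).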

How the data were processed

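RNA-seq of 24 mouse B cell libraries was analysed. Alignment by the authors (Subread, GRCm38) retained unique hits only, and featureCounts assigned them to RefSeq exons (versions and read length not given in the sources used here); they deposited gene counts in 2 tables and, per library, log2 RPKM values that they had quantile normalized. The deposited log2 RPKM values of LPS + IL-4 libraries were normalized separately and served only the filter and the comparison of ferritin chains. Every column of the tables was mapped to a sample. Entries without a symbol (517, 0.162% of counts) stayed in the fits.

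Counts were fitted with edgeR 4.0.16 (R 4.3.3; TMM; quasi-likelihood test; Benjamini-Hochberg adjustment over all genes), the 8 libraries of a stage together, for 12500 naive, 12721 CD40L + IL-4 and 12445 LPS + IL-4 genes that reached 0.5 CPM in 2 or more libraries. Stages, and genotype effects between stages, were compared in 1 fit of all 24 libraries (13684 genes). A gene passed at an adjusted p under 0.15 and was DE, after the study's rule, if it also differed by more than 1.5-fold with a mean log2 RPKM above 0. Voom with limma 3.58.1 and DESeq2 1.42.0 were alternatives, with other normalization, filter, block and left-out libraries. Levels are TMM-scaled CPM. Standard errors are the log2 fold change over the root of F. The fits were tested on simulated data.

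Samples of the same replicate number deviated together in LPS + IL-4 cells (correlations 0.386 to 0.514), but not reliably in naive (0.0918 to 0.250) or CD40L + IL-4 cells (-0.0702 to 0.266), so the block was read as a pairing only for LPS + IL-4. The members and gene lists were chosen with earlier results of these data known. Named were all members, up to 4 other iron genes per comparison with control that were DE without overlap, the 5 neighbours of the largest summed change in SpiB KO, and the 3 genes most like Ftl1, Fth1 and Tfrc. An exact two-sided permutation test of 2 against 2 libraries cannot go below p = 0.333 and was not used. Hairpins come from GENCODE vM21 transcripts, gene positions from RefSeq.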

Additional observations from a re-analysis of the deposited data

Results flagged for a closer look

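In the fit of all 24 libraries, 5 genotype effects of members differed between stages at an adjusted p under 0.15. The Tfrc difference between PU.1 cKO and control after CD40L + IL-4 exceeded the naive one by 0.97 ± 0.29 (log2) (adjusted p = 0.0649, beside 9.05% of all genes that passed). The Tfrc difference between PU.1 SpiB DKO and control was lower after LPS + IL-4 than in naive cells, by -0.64 ± 0.28 (adjusted p = 0.124, beside 29.6% of all genes), and than after CD40L + IL-4, by -0.97 ± 0.28 (adjusted p = 0.0241, beside 28.6%). In the same comparison of the activated stages the PU.1 SpiB DKO difference was lower after LPS + IL-4 for Slc11a2, by -0.51 ± 0.22 (adjusted p = 0.120), and higher for Aco1, by 0.47 ± 0.17 (adjusted p = 0.0723). No SpiB KO difference of a member other than Ftl1 passed between stages by edgeR, and none reached an unadjusted p under 0.05. Each of the 5 was lost without some single library. The PU.1 cKO value of Tfrc was lost without CD40L + IL-4 control replicate 2, CD40L + IL-4 PU.1 cKO replicate 2 or naive PU.1 cKO replicate 1 (0.78 to 0.93, adjusted p = 0.179 to 0.234). The PU.1 SpiB DKO value of Tfrc against naive was lost without any of 6 libraries, among them LPS + IL-4 control replicate 2 (-0.44, adjusted p = 0.412), and that against CD40L + IL-4 without LPS + IL-4 control replicate 2 (-0.72, adjusted p = 0.163). The Slc11a2 value was lost without any of 5 libraries (-0.54 to -0.37, adjusted p = 0.208 to 0.360). The Aco1 value was lost without control replicate 1 of either culture (0.31 for CD40L + IL-4, 0.36 for LPS + IL-4) or CD40L + IL-4 PU.1 SpiB DKO replicate 2 (0.45), at adjusted p = 0.193 to 0.289. The CD40L + IL-4 libraries were counted in a table of their own, so for them stage and table cannot be told apart.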

How the results depend on the processing

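Over all stages, the count of members DE against control stayed at 0 in SpiB KO under all alternatives and, leaving out 1 library at a time, was 0 to 1 in PU.1 cKO and 1 to 3 in PU.1 SpiB DKO, which had 2 DE and 1 with voom or an adjusted p under 0.05. Against the single mutants 6 became 3 at an adjusted p under 0.05 and 3 to 7 without 1 library. The interaction, 1 gene, was 2 in DESeq2 and with the replicate block, 3 without a filter on low counts, 0 with voom or an adjusted p under 0.05, and 0 to 2 without 1 library. Genotype effects between stages, 5, fell to 1 at an adjusted p under 0.05 and ranged from 2 to 7 without 1 library, from alternatives chosen after seeing the data. The 12 control stage calls ranged from 11 to 13 without 1 library. The cause of these shifts was not tested.

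Small differences turned sign only when 1 library was left out. Against control these were Fth1 in SpiB KO, with ranges of -0.0226 to 0.31 in naive, -0.41 to 0.0423 in CD40L + IL-4 and -0.23 to 0.17 in LPS + IL-4 cells (also 0.0358 without control replicate 1), Fth1 in LPS + IL-4 PU.1 SpiB DKO cells (-0.35 to 0.20, and 0.00287 without control replicate 1), Tfrc in SpiB KO (-0.32 to 0.43 in CD40L + IL-4, -0.31 to 0.0914 in LPS + IL-4) and Ftl1 in CD40L + IL-4 PU.1 cKO cells (-0.18 to 0.61). In naive cells Ftl1 ran from -0.42 to 1.55 between PU.1 SpiB DKO and SpiB KO and from -0.58 to 1.41 in the interaction, with naive PU.1 SpiB DKO replicates at 14.3 and 3.64 CPM. In all, 923 single values stayed the same, 108 lost the call (21 of them under the adjusted p of 0.05), 20 gained one, 16 moved and 11 turned sign. For tested values the same means the same direction and side of the threshold. For Ftl1 values without a test it means a shift smaller than the spread (SD) of the replicates, and the 16 that moved exceeded that spread.

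As a pairing the replicate block applies to LPS + IL-4 cells, where it changed, against control, the Tfrc call in PU.1 cKO alone. Between mutants it brought further PU.1 SpiB DKO values of that stage past the test. Against PU.1 cKO these were Aco1 (0.21, adjusted p = 0.0298) and Ireb2 (-0.19, adjusted p = 0.0914). Against SpiB KO they were Aco1 (0.22, adjusted p = 0.0275) and Tfrc (-0.28, adjusted p = 0.0551). The Tfrc interaction passed as well (-0.61, adjusted p = 0.0472). In the other stages the block shares only a number: there, against control, Tfrc in naive SpiB KO (0.32, adjusted p = 0.0826), Fth1 in naive PU.1 SpiB DKO (-0.31, adjusted p = 0.0408) and Tfrc after CD40L + IL-4 in PU.1 SpiB DKO (0.46, adjusted p = 0.0957) and in PU.1 cKO (0.46, adjusted p = 0.120), and Slc11a2 there in PU.1 cKO (0.40), passed with it. With 2 libraries a group, Hmox1 in naive cells and Slc40a1 lie at counts too low for a change to be detected.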
